A study of Mus musculus with 4 samples.

Results

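Very wide accessible regions on the autosomes were examined in pachytene spermatocytes of mouse testis by ATAC-seq, an assay in which a transposase inserts sequencing adapters into open DNA. Pachytene cells were held with 2.5 µM BMH-21, which inhibits RNA polymerase I, for 12 h, or received DMSO (mock), and each group had 2 libraries made from about 10000 cells each. The libraries are called biological replicates by the submitters, but separate animals are not stated, so the spread between them may be technical. Peaks were listed separately for every library, and no age, strain or genotype was given. The peaks of the 4 lists were merged into 155908 regions wherever they overlapped by at least 1 bp, of which 127091 lay on chromosomes 1 to 19. A region was counted as very wide if at least 1 of the 4 lists held a single peak of 2000 bp or more in it. This gave 462 regions, and the same width was reached by 19 regions on X and 1 on Y.

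The width of a peak is the stretch over which inserted ends exceed the local background of the same library. Most accessible sites, such as enhancers, open about as much DNA as a nucleosome or a few take up. Wider open stretches are known at promoters rich in the dinucleotide CG (CpG islands), at genes that control development and at genes transcribed strongly, where several neighbouring nucleosomes are removed or loosened. In pachytene spermatocytes the autosomes are paired and transcribed at high rates, while X and Y are silenced. BMH-21 stops the transcription of the ribosomal RNA repeats in the nucleolus.

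Paired values are those of the first and second library of a group. The width of a region in a library is its widest single peak there, and 0 where the library had no peak. These widths chose the regions, so they are described without a test. All values come from bulk cells, in which fewer open cells and less opening per cell cannot be told apart.

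The promoters of 6 genes are shown because their genes stand for the patterns described here. Hspa2, a heat shock protein abundant in pachytene spermatocytes, and Ing1, a chromatin reader, lie in regions that were narrower after BMH-21. Foxl2, a transcription factor of the ovary and eyelid, stands for the developmental genes. Rpl41, a ribosomal protein, and Peg3, an imprinted zinc finger gene, lie in regions that were wider. Dyrk1a, a protein kinase, lies in a region that kept its width. Each sequence is the 250 bases before the transcript start, 5′ to 3′ on the gene's strand, from RefSeq with build GRCm38.p6. Capitals mark matches to the motifs listed with the promoter composition: the GC box in Hspa2, Ing1, Foxl2, Rpl41 and Dyrk1a, the CCAAT box in Hspa2 and Peg3, an NRF1 motif in Ing1, an ETS motif in Rpl41, a CRE in Peg3 and a YY1 motif in Dyrk1a. Their places are chr12:76404120-76404369 (plus strand, Hspa2), chr8:11555512-11555761 (plus, Ing1), chr9:98955357-98955606 (plus, Foxl2), chr10:128549169-128549418 (minus, Rpl41), chr7:6730420-6730669 (minus, Peg3) and chr16:94569956-94570205 (plus, Dyrk1a).
Hspa2: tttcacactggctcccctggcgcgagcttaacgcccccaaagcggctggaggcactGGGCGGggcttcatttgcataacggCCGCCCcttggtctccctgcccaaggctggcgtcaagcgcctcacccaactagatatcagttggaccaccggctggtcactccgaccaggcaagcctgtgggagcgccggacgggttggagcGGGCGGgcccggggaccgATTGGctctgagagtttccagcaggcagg
Ing1: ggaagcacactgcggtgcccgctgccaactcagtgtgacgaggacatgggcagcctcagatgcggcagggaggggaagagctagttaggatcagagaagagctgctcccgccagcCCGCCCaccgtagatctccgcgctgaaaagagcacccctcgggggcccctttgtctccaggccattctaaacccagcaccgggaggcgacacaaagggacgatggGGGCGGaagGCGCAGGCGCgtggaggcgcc
Foxl2: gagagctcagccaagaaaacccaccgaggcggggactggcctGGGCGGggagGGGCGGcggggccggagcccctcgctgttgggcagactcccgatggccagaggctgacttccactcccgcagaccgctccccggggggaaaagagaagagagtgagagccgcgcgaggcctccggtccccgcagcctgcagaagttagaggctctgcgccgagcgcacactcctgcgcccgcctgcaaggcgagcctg
Rpl41: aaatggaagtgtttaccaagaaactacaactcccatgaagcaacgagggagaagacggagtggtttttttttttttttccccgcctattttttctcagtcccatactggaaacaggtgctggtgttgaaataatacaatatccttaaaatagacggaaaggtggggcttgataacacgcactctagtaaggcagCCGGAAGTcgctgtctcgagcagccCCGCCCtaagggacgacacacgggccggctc
Peg3: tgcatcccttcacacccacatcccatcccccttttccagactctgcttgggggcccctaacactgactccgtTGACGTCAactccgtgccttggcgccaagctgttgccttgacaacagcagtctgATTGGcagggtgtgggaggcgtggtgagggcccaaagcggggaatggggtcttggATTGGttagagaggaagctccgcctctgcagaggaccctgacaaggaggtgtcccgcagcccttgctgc
Dyrk1a: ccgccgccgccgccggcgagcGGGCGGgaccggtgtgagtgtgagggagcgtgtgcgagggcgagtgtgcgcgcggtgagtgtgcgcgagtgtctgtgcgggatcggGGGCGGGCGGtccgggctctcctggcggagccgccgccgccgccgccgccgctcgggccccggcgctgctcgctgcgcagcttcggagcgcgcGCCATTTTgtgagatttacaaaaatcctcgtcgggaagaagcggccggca

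The very wide regions were mostly a feature of the mock lists. Single peaks of 2000 bp or more were held by 60 and 54 of the regions in the BMH-21 libraries, against 366 and 379 in the mock libraries, or 57 ± 4.24 and 372.5 ± 9.19 on average (SD, n = 2 each). As a share of autosomal peaks this was 0.172 and 0.142% in the BMH-21 libraries, against 0.406 and 0.39% in the mock libraries. The groups did not overlap, and the ratio of the means was 0.153. The BMH-21 lists were also shorter, with 51234 and 55459 peaks, against 109230 and 117905 peaks in the mock lists. The genome-wide background recovered from the peak statistics, which scales with the reads given to the caller, overlapped between groups, at 4.46 and 4.11 fragments in the BMH-21 libraries and 4.54 and 4.31 fragments in the mock libraries. Over the whole lists, which differ in length and therefore in which regions they hold, the median width of an autosomal peak was 453 and 401 bp in the BMH-21 libraries and 364 and 353 bp in the mock libraries. The 99th percentile was 1644 and 1592 bp in the BMH-21 libraries and 1738 and 1714 bp in the mock libraries. In the autosomal regions that all 4 libraries held and that were not very wide, the median width was 735 and 711 bp in BMH-21 and 793 and 797 bp in mock libraries.

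**Figure D1:**
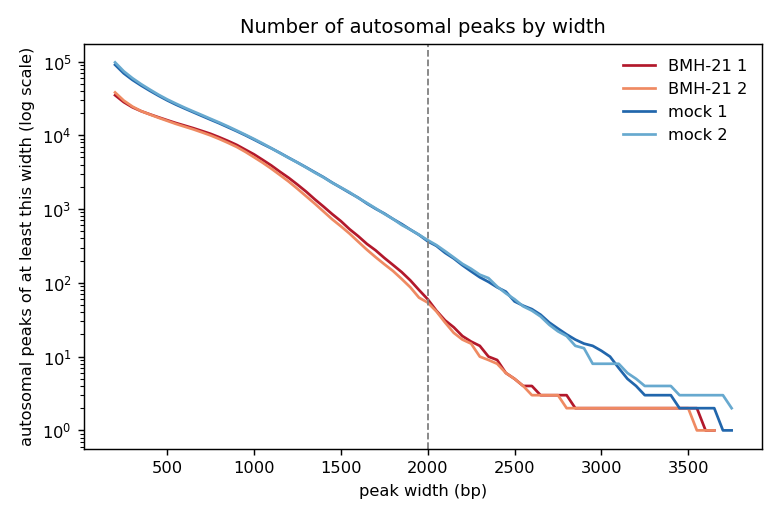
Number of autosomal peaks (log scale) that reach each width in bp, one line per library, with the 2000 bp limit dashed. At 2000 bp the BMH-21 lines stand at 60 and 54 peaks and the mock lines at 366 and 379.

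Of the 462 regions, 260 reached 2000 bp in both mock libraries and in no BMH-21 library, 58 in the first mock library alone and 69 in the second alone. All 4 libraries reached it in 31 regions. Both BMH-21 libraries and neither mock library did so in 7 regions, and a single BMH-21 library alone in 12 and 6. The values just at the limit show how fine this choice is. Just outside was a region at Gm23582 (chr11:21247291-21249361), with 835 and 0 bp in BMH-21 and 1999 and 1559 bp in mock libraries. Also outside was the region of Cggbp1 and Zfp654 (chr16:64850799-64852818), with 1972 and 1900 bp in BMH-21 and 1998 and 1989 bp in mock libraries. Just inside were the region of Gm46725 (chr2:18688669-18690674), with 1996 and 2000 bp in BMH-21 and 1977 and 1974 bp in mock libraries, and one at chr1:88254779-88256834, with no BMH-21 peak and 2000 and 1518 bp in mock libraries. The 143 regions of 2000 to 2099 bp had a median of the mean width of 989 bp in BMH-21 and 2005 bp in mock libraries, beside 1133 and 1899 bp in the same order for the 191 regions of 1900 to 1999 bp.

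A peak of some width was held by 401 and 397 of the 462 regions (86.8 and 85.9%) in the BMH-21 libraries, and by 462 and 462 in the mock libraries. The median width was 1085 and 1009.5 bp in the BMH-21 libraries, against 2125 and 2143 bp in the mock libraries, with group means of 1047.25 ± 53.4 and 2134 ± 12.7 bp (SD, n = 2 each). The difference, BMH-21 minus mock, was -1086.75 bp. The choice by width favoured a negative difference, because 387 of the 462 regions reached the limit in mock libraries alone. Where a library held the region at all, the median was 1218 and 1180 bp in BMH-21 and 2125 and 2143 bp in mock libraries. The widest peak was narrower in both BMH-21 libraries than in both mock libraries in 407 regions (88.1%), wider in 18 (3.9%) and overlapping between groups in 37. Among all 127091 autosomal regions 45.4% were narrower and 9.43% wider by the same count, and because the choice by width used this contrast the members' share is read no further. In 226 regions the width in each BMH-21 library was at most 50% of the mean mock width, and in 43 both BMH-21 libraries lay within 10% of it.

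**Figure D2:**
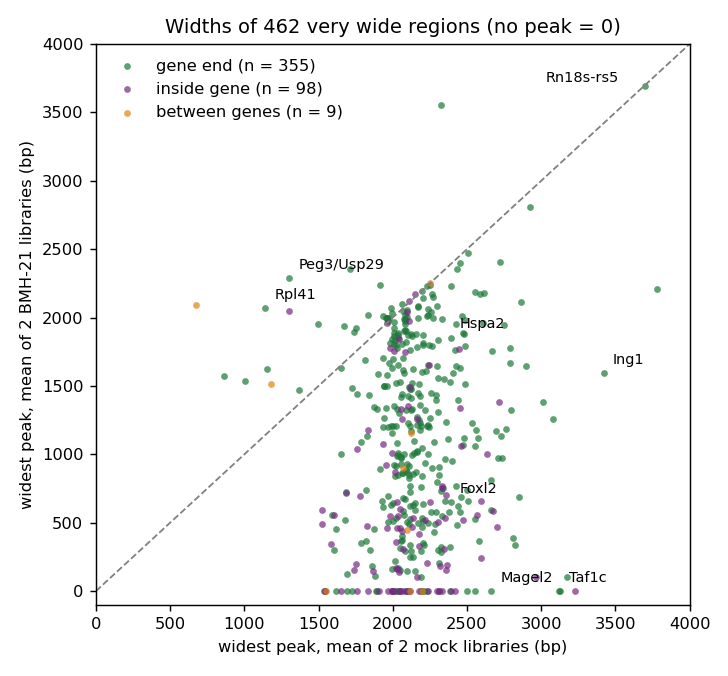
Mean width in bp of the widest peak in the 2 BMH-21 libraries (vertical) against that in the 2 mock libraries (horizontal) for the 462 regions, coloured by position relative to genes, with the line of equal width dashed. Most points lie below the line, 51 regions lie at 0 on the vertical axis, and Peg3/Usp29 and Rpl41 lie above the line.

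Most narrower regions still held a peak. Both BMH-21 libraries lacked a peak in 51 regions (11.0%), and 1 of them lacked it in 24 more. Of the 70241 autosomal regions held by both mock libraries, 63.7% were absent from both BMH-21 lists. Narrowing took the form of splitting in some regions and of shrinking in others. Regions with 2 or more separate peaks numbered 149 and 171 in the BMH-21 libraries, against 50 and 55 in the mock libraries. Of the 407 narrower regions, 114 held 2 or more peaks in both BMH-21 libraries and 152 held exactly 1 in both. These counts did not use the number of mock peaks, so the 114 may include regions already split in mock libraries. Summed over all peaks of a region, 95 of the 407 still covered at least 80% of the mock length, and 189 covered at most 50%. The median covered length was 1318.5 and 1325.5 bp in BMH-21 libraries and 2145.5 and 2151 bp in mock libraries.

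Choosing regions by 1 library alone and reading the others gives widths that the choice did not use. Among the 366 regions that reached 2000 bp in the first mock library, the BMH-21 libraries had medians of 1000.5 and 966.5 bp, reached the limit in 40 and 39 regions and lacked a peak in 49 and 52. The second mock library had a median of 2158 bp there and reached the limit in 308 (84.2%). The choice by the second mock library gave nearly the same values, with BMH-21 medians of 1048 and 1010 bp beside 2156 bp in the first mock library. Among the 60 regions that reached the limit in the first BMH-21 library, the second BMH-21 library had a median of 2055 bp and reached it in 39 (65.0%), and the mock libraries had medians of 2192 and 2206.5 bp and lacked none. For the 54 chosen by the second BMH-21 library, the first had a median of 2073.5 bp and the mock libraries 2182.5 and 2157 bp. No test was made with the 1 or 2 libraries left in a group, and 2 against 2 libraries allow no exact permutation p under 0.33.

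The signal inside the regions was compared in the 387 that all 4 libraries held, of which 332 were narrower (85.8%, with 44.3% of 20403 autosomal regions in all 4 libraries) and 18 wider (4.65%, with 26.0%). At the summit the median number of fragments was 106 and 108 in the BMH-21 libraries, against 144 and 148 in the mock libraries. Both BMH-21 libraries were lower in 308 regions and higher in 39, while 49.5% and 31.6% of all 20403 regions were lower and higher. The local background, the number of fragments the caller expected at the summit, was 16.6 and 15.9 in BMH-21 and 29.0 and 29.0 in mock libraries. It was lower in 317 regions and higher in 48, beside 48.9% and 35.5% of all regions. The fold, which is the authors' ratio of the pileup at the summit to this background, had medians of 5.23 and 5.45 in BMH-21 and 4.78 and 4.82 in mock libraries, higher in 218 and lower in 107, beside 37.8% and 42.3% of all regions. Median ratios of BMH-21 to mock were 0.576 for width, 0.746 for fragments, 0.551 for background and 1.13 for fold. In the other 20016 autosomal regions of all 4 libraries they were 0.956, 0.921, 0.96 and 0.979. Of all 462 members, 387 reached the limit in mock libraries alone, so the choice favoured lower BMH-21 widths and the signal tied to them, and these ratios are a description. The local background moved with width in these regions, and its part in the widths was not tested.

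Members tied to ribosomal RNA come first. Rn18s-rs5, annotated as an 18S ribosomal RNA-related pseudogene, lies at the right end of chr17:39843067-39846786, and its peak was 3699 and 3693 bp in BMH-21 and 3686 and 3710 bp in mock libraries. The groups overlapped. Its summit held 306 and 310 fragments in BMH-21 and 377 and 377 in mock libraries, but its local background was 145 and 146 against 182 and 183, so that the fold was 2.1 and 2.12 in BMH-21 and 2.07 and 2.06 in mock libraries. Ribosomal RNA genes exist in many near-identical copies, and how reads were shared among them is not given in the sources used here, so this region is uncertain. Taf1c encodes a subunit of the selectivity factor that brings RNA polymerase I to ribosomal promoters. It shares chr8:119598604-119601750 with Dnaaf1, a dynein assembly factor, and Rps13-ps4. The peak there was absent from both BMH-21 libraries and 3109 and 3147 bp wide in mock libraries, and no transcript start lay inside. Ubtf, a transcription factor of RNA polymerase I, had a transcript start inside another member, on chromosome 11. Downstream of that start, peaks covered 849 and 1149 bp in BMH-21 and 2523 and 2561 bp in mock libraries.

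Of the 14 members that reached 3000 bp, 12 were narrower, beside 88.1% of all 462 members and 45.4% of all autosomal regions. Ap5b1, an adaptor protein subunit (chr19:5567225-5571157), had 1188 and 1328 bp in BMH-21 and 2364 and 3797 bp in mock libraries, where the first mock library carried 2 peaks that together covered 3588 bp. Csf2ra, a subunit of the receptor for a myeloid growth factor (chr19:61224857-61228732), had 2539 and 1875 bp in BMH-21 and 3784 and 3774 bp in mock libraries. The region of Ing1 (chr8:11555152-11558693) had a widest peak of 1626 and 1568 bp in BMH-21 and 3414 and 3427 bp in mock libraries. It split rather than closed: 2 and 3 peaks covered 2946 and 2776 bp in BMH-21, and its summit held 174 and 171 fragments in BMH-21 and 150 and 154 in mock libraries. Adgrl2, an adhesion receptor (chr3:148987413-148990509), had 1178 and 1592 bp in BMH-21 and 3097 and 2925 bp in mock libraries.

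Some of the widest mock peaks had no counterpart. A region inside Ahdc1, a gene with AT-hook motifs (chr4:133061459-133064701), was absent from both BMH-21 libraries and 3221 and 3228 bp wide in mock libraries. The same held for the region of Acads, an enzyme of fatty acid oxidation (chr5:115109573-115112712), at 3140 and 3100 bp, and for Magel2, an imprinted gene (chr7:62377011-62379712), at 2660 and 2670 bp in mock libraries. At Unc45bos inside Unc45b, a myosin chaperone gene (chr11:82930129-82933339), BMH-21 libraries had 208 and 0 bp and mock libraries 3166 and 3185 bp. Inside Shank1, a scaffold of synapses (chr7:44351627-44354640), BMH-21 libraries had 205 and 0 bp and mock libraries 3014 and 2915 bp. At Nat14 and Zfp628 (chr7:4918774-4921722) the values were 200 and 0 bp in BMH-21 and 2700 and 1681 bp in mock libraries. None of these groups overlapped. Regions inside genes were also held by all 4 libraries and narrower. Inside Hivep2, a zinc finger gene (chr10:13964587-13967706), BMH-21 libraries had 651 and 292 bp and mock libraries 3089 and 2321 bp. Inside Arid1a, a subunit of a nucleosome remodeller (chr4:133751884-133754669), BMH-21 libraries had 1754 and 1788 bp and mock libraries 2126 and 2763 bp. The Hivep2 and Arid1a regions each held an annotated transcript start of their gene.

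**Figure D3:**
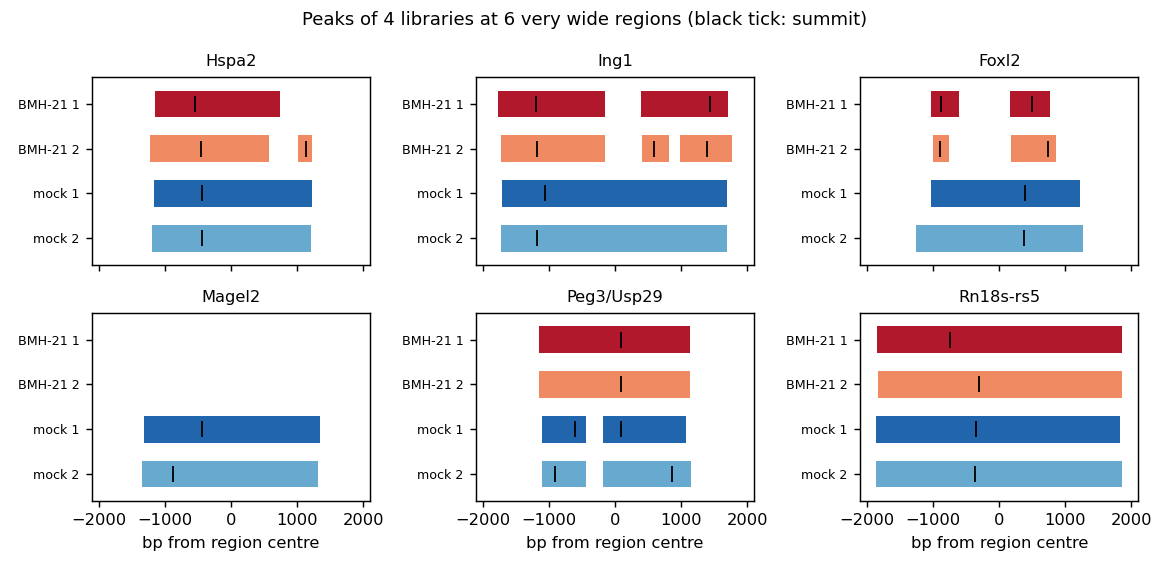
Peaks of each library as bars against distance in bp from the region's centre, BMH-21 libraries above mock libraries, with black ticks at the summits. At Ing1 and Foxl2 the BMH-21 peaks are split, at Magel2 they are absent, at Peg3/Usp29 a single BMH-21 peak spans the gap between 2 mock peaks, and at Rn18s-rs5 all 4 peaks have nearly the same ends.

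The 18 wider regions were in part joins of peaks. In 7 of them both mock libraries held 2 or more peaks, and in 13 the covered length in BMH-21 was within 20% of that in mock libraries. The widest was an uncharacterised cluster at the end of chromosome 9 (chr9:124422453-124426016, Gm20783, LOC108167694 and 4930526I15Rik), with 3564 and 3541 bp in BMH-21 and 2338 and 2310 bp in mock libraries. At Peg3 and Usp29, imprinted neighbours transcribed away from each other (chr7:6728338-6730649), the widest peak was 2296 and 2289 bp in BMH-21 and 1262 and 1342 bp in mock libraries. The mock libraries covered 1936 and 2010 bp in 2 peaks there, and the summit held 139 and 134 fragments in BMH-21 and 94 and 102 in mock libraries. At Rpl41 and Zc3h10 (chr10:128547217-128549291) the widest peak was 2066 and 2068 bp in BMH-21 and 1139 and 1145 bp in mock libraries. A region between genes on chromosome 5 (chr5:32712293-32714398), 5993 bp from Gm2420, held 1 peak in every library, at 2089 and 2094 bp in BMH-21 and 676 and 678 bp in mock libraries. Fbxl19, whose product binds CpG islands, held an inner region (chr7:127745381-127747486) of 2048 and 2041 bp in BMH-21 and 937 and 1661 bp in mock libraries. An annotated transcript start of Fbxl19 lay inside it. Them6 (chr15:74720919-74723049) had 2003 and 1147 bp in BMH-21 and 905 and 823 bp in mock libraries, so that 1 BMH-21 library alone reached the limit.

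The 31 regions that reached 2000 bp in all 4 libraries were at the ends of genes in 27 cases. Chosen after their values were seen, the following illustrate them. Dyrk1a (chr16:94568908-94571180) had 2229 and 2253 bp in BMH-21 and 2237 and 2269 bp in mock libraries. Cdk13, a kinase of RNA polymerase II (chr13:17803268-17805870), had 2416 and 2525 bp in BMH-21 and 2498 and 2521 bp in mock libraries. Hnrnpa0, an RNA-binding protein, had 2386 and 2405 bp in BMH-21 and 2446 and 2456 bp in mock libraries. The divergent pair Cbx3 and Hnrnpa2b1, long known as a ubiquitously open CpG island, had 2003 and 2006 bp in BMH-21 and 2106 and 2092 bp in mock libraries. A region on chromosome 14 (chr14:115040243-115042549), 1122 bp from Mir17, the first microRNA of a growth-promoting cluster, had 2251 and 2255 bp in BMH-21 and 2244 and 2264 bp in mock libraries.

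Position relative to genes was not used in the choice. Of the 462 regions, 355 (76.8%, exact 95% interval 72.7 to 80.6%) overlapped or lay within 1 kb of an end of an annotated gene, 98 (21.2%, 17.6 to 25.2%) lay inside a gene and 9 (1.95%, 0.895 to 3.67%) between genes. These intervals cover counting error only. A wider region or peak spans more bases, so it meets a gene end or start more often by size alone. The shares below were not corrected for this. The other 126629 autosomal regions had 22.4, 51.9 and 25.6% in the same order, and those of them held by all 4 libraries had 62.8% at gene ends. Within each library, peaks of 2000 bp or more were at gene ends in 88.3 and 83.3% of cases in the BMH-21 libraries and in 77.3 and 77.0% in the mock libraries, while the other autosomal peaks were so in 45.0 and 43.5% in the BMH-21 libraries and in 26.3 and 25.2% in the mock libraries. The difference averaged 46.5 ± 5.87 percentage points (SD, n = 4) and was above 0 in 4 of 4 libraries, with an exact two-sided sign-flip permutation p of 0.13, the smallest that 4 libraries allow. The share climbed with width and then levelled: 13.3% of regions under 500 bp, 32.6% of 500 to 999 bp, 68.7% of 1000 to 1499 bp, 79.3% of 1500 to 1999 bp, 76.2% of 2000 to 2499 bp and 80.3% of 2500 bp or more. The exact intervals of the last 3 shares overlapped.

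**Figure D4:**
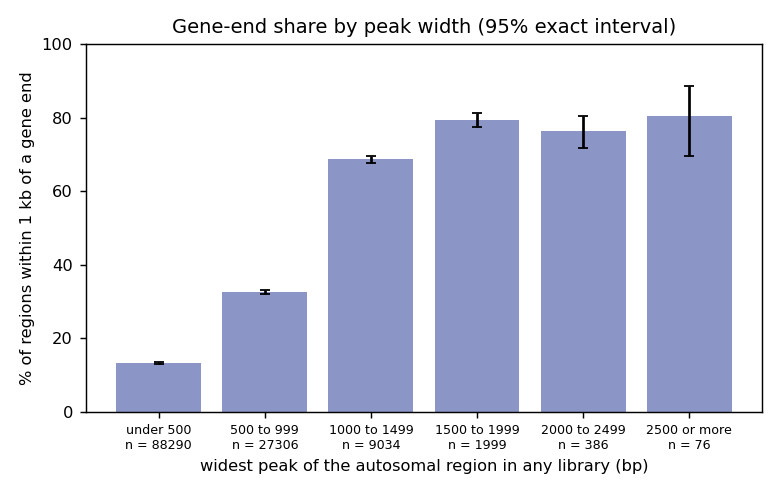
Share (%) of autosomal regions within 1 kb of a gene end, by the widest peak of the region in any library (bp), with exact 95% intervals as error bars and the number of regions below each bar. The share is 13.3% under 500 bp and 79.3%, 76.2% and 80.3% in the last 3 classes.

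The regions were then divided by transcript starts. A start from the RefSeq promoter table lay inside 266 regions (57.6%), beside 9.52% of the other autosomal regions, and in 74 regions starts lay on both strands. None of the starts matched to very wide regions was on chromosome 18. The 15 regions there counted as without a start, so the number with a start may be too low. Of the 266, 4 (1.5%) lacked a peak in both BMH-21 libraries, and of the 196 without a start 47 did. Median widths were 1335 and 1272 bp in BMH-21 and 2142 and 2144.5 bp in mock libraries with a start, and 540 and 524 bp in BMH-21 and 2104 and 2127.5 bp in mock libraries without. The mock medians of both classes were close, and the BMH-21 medians were lower in the regions without a start. Close mock medians were favoured by the choice, because 387 of the 462 regions reached the limit in mock libraries alone. The contrast is therefore a description. With starts on both strands the medians were 1620.5 and 1402.5 bp in BMH-21 and 2157 and 2157 bp in mock libraries. Regions inside genes had medians of 436 and 440.5 bp in BMH-21 and 2101.5 and 2108 bp in mock libraries, and 24 of 98 were absent from both BMH-21 libraries. These differences between classes of region were not tested.

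In the 192 regions whose starts all lay on 1 strand, peaks covered more bases into the gene than before it. All peaks of a region were summed on each side of the start. The median length covered upstream of the start was 489 and 509.5 bp in BMH-21 and 670.5 and 675 bp in mock libraries. Downstream it was 854 and 858.5 bp in BMH-21 and 1499.5 and 1525.5 bp in mock libraries. The downstream length was the larger in 70.3 and 68.2% of regions in BMH-21 and in 78.1 and 77.1% in mock libraries. At the start itself 73.4 and 73.4% of the regions were covered by a peak in BMH-21 and 99.5 and 99.0% in mock libraries. At 1000 bp into the gene these shares were 45.3 and 44.3% in BMH-21 and 81.2 and 79.7% in mock libraries, and at 1000 bp before it 18.8 and 17.2% in BMH-21 and 26.6 and 27.1% in mock libraries.

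**Figure D5:**
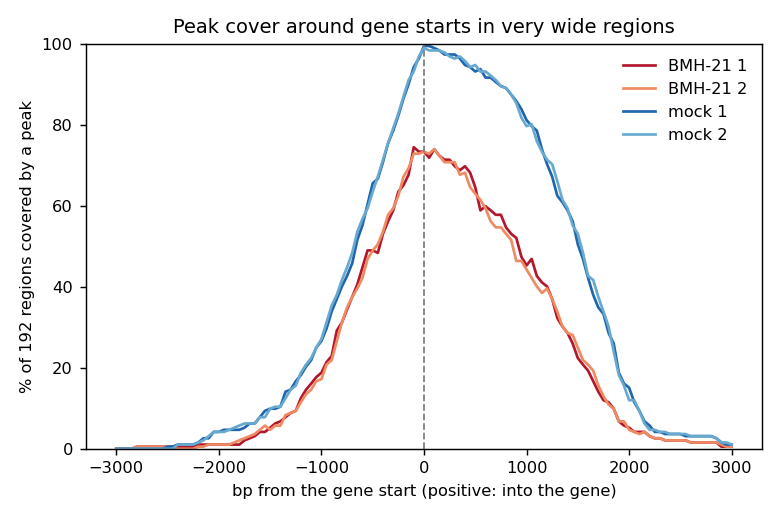
Share (%) of 192 regions covered by a peak at each distance in bp from the gene start, positive into the gene, one line per library. Both BMH-21 lines lie below both mock lines at the start (73.4 and 73.4% against 99.5 and 99.0%) and at 1000 bp into the gene (45.3 and 44.3% against 81.2 and 79.7%).

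The promoters inside the regions were rich in CpG. Over 343 promoters of 250 bases the median GC content was 67.2% and the ratio of observed to expected CpG 0.823. None of the 343 was on chromosome 18. All 25748 autosomal promoters of the table had 52.4% and 0.385 in the same order. A ratio of at least 0.6 with at least 50% GC was met by 84.8% of the 343 promoters and by 32.1% of all. The GC box (GGGCGG, the site of Sp1) was found in 67.9% of the 343 promoters and 33.3% of all, the NRF1 motif in 8.75% of the 343 and 3.93% of all, and the TATA box (TATAAA) in 3.79% of the 343 and 13.0% of all. The CCAAT box (CCAAT) was in 35.0% of the 343 and 34.4% of all, the CRE (TGACGTCA) in 2.62% and 1.64%, the ETS motif (CCGGAAGT) in 2.33% and 2.96% and the YY1 motif (AANATGGC) in 4.37% and 3.92%, in the same order. All motifs were searched on both strands, and matches may overlap each other. Of the promoters shown above, Dyrk1a had 74.4% GC and a CpG ratio of 1.28, and Peg3 60.4% and 0.351. Among 76 promoters in regions that reached 2000 bp in a BMH-21 library, the CCAAT box was in 44.7% and the CpG ratio was 0.874, and among 98 in regions under 1000 bp in both BMH-21 libraries they were 23.5% and 0.775. GC content and the GC box ran the other way, at 64.8 and 61.8% in the 76 promoters and 66.8 and 66.3% in the 98. A match is a description of sequence, and base composition differs between these sets.

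By gene function, 519 of 47042 autosomal genes (1.1%) had an end within 1 kb of a region, 402 of them protein-coding (of 20665, or 1.95%). The developmental transcription factors, which pattern organs in the embryo, stood at 11 of 76 genes (14.5%). All 11 of their regions were narrower, none was absent from both BMH-21 libraries (88.1 and 11.0% of all 462 regions), and the median widths were 611 and 668 bp in BMH-21 and 2254 and 2134 bp in mock libraries. Foxf1, a regulator of lung and gut mesenchyme (chr8:121082320-121085323), had 271 and 337 bp in BMH-21 and 1972 and 2638 bp in mock libraries. Foxl2 (chr9:98954893-98957418) had 611 and 692 bp in BMH-21 and 2257 and 2526 bp in mock libraries, with 39 and 39 summit fragments in BMH-21 and 143 and 143 in mock libraries. Further members of the list were Foxd3, Sox11, Nkx6-1, Foxf2, Neurog2, Sox17 and Irx3. Hoxb9, the 1 of 39 Hox genes at a region, had 569 and 441 bp in BMH-21 and 2023 and 1911 bp in mock libraries.

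Germ line and stress genes are given by list, beside the 1.1% of all autosomal and 1.95% of protein-coding genes at a region. Of 8 pachytene marker genes, all of which had a peak at a gene end in every library, Hspa2 alone was at a very wide region (chr12:76403519-76405972). Its widest peak was 1898 and 1810 bp in BMH-21 and 2383 and 2400 bp in mock libraries, and it was the 1 of 32 heat shock genes at a region (3.12%). Mybl1, the master regulator of pachytene transcription, had 1421 and 1409 bp in BMH-21 and 1687 and 1625 bp in mock libraries, and Sycp3, of the synaptonemal complex, 1389 and 1380 bp in BMH-21 and 1355 and 1354 bp in mock libraries. Sycp1 had 1380 and 1206 bp in BMH-21 and 1187 and 1412 bp in mock libraries, and Piwil1, a piRNA-binding protein, 650 and 597 bp in BMH-21 and 893 and 905 bp in mock libraries. Ldhc, a lactate dehydrogenase of the testis, had 1316 and 1279 bp in BMH-21 and 1274 and 1316 bp in mock libraries, and Tesmin 1027 and 989 bp in BMH-21 and 1109 and 1414 bp in mock libraries. Pgk2, a glycolytic enzyme of the testis, went the other way from Mybl1 and Piwil1, with 782 and 799 bp in BMH-21 and 237 and 338 bp in mock libraries. Of 38 meiosis genes 2 (5.26%) were at a region: Rec114, needed for meiotic DNA breaks, next to Hcn4, with 805 and 1072 bp in BMH-21 and 2364 and 2076 bp in mock libraries, and Zcwpw1, a histone mark reader needed for meiotic repair, next to Mepce, with 1733 and 1310 bp in BMH-21 and 1984 and 2066 bp in mock libraries. No annotated transcript start of Rec114 or Zcwpw1 lay inside these regions, and the start inside the first was that of Hcn4. Markers of other testis cells had gene-end peaks too, but none was at a very wide region. Sertoli cell markers had one in 5 and 4 of 6 cases in BMH-21 and 4 and 4 in mock libraries, and Leydig cell markers in 2 and 2 of 5 in BMH-21 and 3 and 3 in mock libraries. Spermatogonial markers had one in 3 and 3 of 5 in BMH-21 and 4 and 4 in mock libraries, spermatid markers in 0 and 0 of 4 in BMH-21 and 2 and 2 in mock libraries, and macrophage markers in 1 and 1 of 4 in BMH-21 and 3 and 3 in mock libraries. Their part in the widths was not tested.

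Of 27 listed immediate early genes, which respond within minutes to stimulation, and stress genes, 2 (7.41%) were at a region. Jun had 1802 and 1752 bp in BMH-21 and 2756 and 2829 bp in mock libraries. Egr1 had 1164 and 1027 bp in BMH-21 and 2130 and 2159 bp in mock libraries. Egr4, of the same family as Egr1 but not counted there, had a transcript start inside a region. Downstream of that start, peaks covered 2071 and 2243 bp in BMH-21 and 2235 and 2211 bp in mock libraries, which overlapped. Ribosome biogenesis was represented by Taf1c, the 1 of 20 listed genes of the RNA polymerase I machinery with an end within 1 kb of a region. Ubtf, whose start lay inside a region, was not counted there. Utp18, the 1 of 49 nucleolar genes, shares a region with Mbtd1. That region had 1937 and 2051 bp in BMH-21 and 2189 and 2155 bp in mock libraries. Rpl41 was the 1 of 79 ribosomal protein genes. Tssk6, a kinase of spermatids, was the 1 of 30 spermiogenesis genes (3.33%), next to Ndufa13, with 1020 and 1010 bp in BMH-21 and 2198 and 2129 bp in mock libraries. Of 391 zinc finger genes named Zfp 6 were at a region, the widest at Zfp865 with 369 and 311 bp in BMH-21 and 2826 and 2826 bp in mock libraries. Of 1103 microRNA genes 6 were, among them Mir378a inside Ppargc1b, with 200 and 446 bp in BMH-21 and 2303 and 2350 bp in mock libraries. None was a replication-dependent histone gene (of 64), an olfactory receptor (of 1111) or a piRNA pathway gene (of 21). The same held for pachytene regulators (of 16), snoRNA hosts (of 18) and snRNA genes (of 23).

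The regions were spread over all autosomes, from 10 on chromosome 16 (0.245% of its regions) to 47 on chromosome 7 (0.524%). Neighbours lay a median of 2365 kb apart, and 32 of 443 neighbouring pairs were closer than 100 kb. On X, the 19 regions of the same width had medians of 1308 and 1091 bp in BMH-21 and 2004 and 2067 bp in mock libraries. Of these, 12 were narrower (31.1% of all 28335 X regions), 1 was wider (11.7%) and none was absent from both BMH-21 libraries (22.0% of the X regions in both mock libraries). The same width contrast chose them, so these counts are read no further, and the difference from the autosomal regions was not tested.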

How the data were processed

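ATAC-seq peak lists of 2 BMH-21 and 2 mock libraries were used, 1 list per library and not pooled. Per the submitters' processing notes fastp, Bowtie2, bedtools, deepTools and MACS2 2.1.0 were used, without role or order, and mm39 and mm10 are named. Calling settings are not given in the sources used here. The build was read as mm10 because the last peak of chromosome 1 ends at 195371813, past its mm39 end; positions are 1-based. The deposited fold is a ratio of summit pileup to local background, the deposited −log10 p and q describe enrichment within 1 list (smallest −log10 q 2.01 to 2.09), and the deposited score is derived from −log10 q; none is normalised between libraries. Read totals are unknown. Peak widths are the deposited end minus start. Summit fragments and background were recovered from fold and p by the Poisson relation, and differed from the deposited −log10 p by at most 0.0008.

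Gene ends came from the RefSeq annotation of GRCm38.p6 (47042 autosomal genes) and transcript starts from its promoter table. Python 3.11.15, pandas 2.3.3, numpy 2.4.6 and SciPy 1.17.1 were used. Counts of regions, of wide and absent regions and of regions at gene ends were tested on simulated data. The recovery of fragments and background was not tested in that way. Shares have exact Clopper-Pearson 95% intervals. A width call needs both BMH-21 values on 1 side of both mock values. Members and gene lists were chosen with earlier results of these data known. Named regions were the 10 widest, the 6 largest falls and rises of mean width, up to 4 per gene list, the 4 widest without a gene end, those with most gene ends, those nearest the limit and fixed marker genes. Rn45s and Rn18s were not matched by symbol and have no value, and some regions that the rule names are not reported here. Alternatives were limits of 1500 and 3000 bp, −log10 q of at least 5, equal list lengths, covered length, 50% overlap, windows of 500 bp and 2.5 kb, protein-coding genes and leaving out each library.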

Additional observations from a re-analysis of the deposited data

How the results depend on the processing

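No called value changed sign under an alternative; Rn18s-rs5, whose groups overlapped, had -2 bp and changed to 1 and 10 bp without the second BMH-21 or the second mock library. At a limit of 1500 bp there were 2461 regions, with a difference in median width (BMH-21 minus mock) of -502 bp, 1955 narrower and 199 wider. At 3000 bp there were 14 regions, with -2102.5 bp, 12 narrower and 1 wider. Counting all covered bases gave a difference of -826.25 bp. Gene ends within 2.5 kb raised the gene-end share to 83.8%, and protein-coding genes alone gave 72.1%. Leaving out each library gave 393 to 456 regions, a difference of -1155.5 to -1051.75 bp, 352 to 420 narrower, 20 to 24 wider and 76.2 to 78.1% at gene ends. The stricter −log10 q and equal list lengths (51234 peaks) left 462 and 460 regions, 407 and 405 narrower and 18 and 18 wider. Of 305 recomputed widths of single named regions, 291 stayed within the larger SD of a group and 14 moved, 12 of them under covered bases. Of the 291, 149 came from leaving out a library. That shifts a mean of 2 libraries by less than their SD, so these were bound to stay. Single libraries mattered at Fbxl19 (383.5 bp without the first mock library), Arid1a (-355 bp without the second mock library), and Mepce and Them6 (-292 and 1139 bp without the second BMH-21 library). No paired analysis was possible because the group differences are descriptions of what chose the regions and come from no test, and the sign-flip test compares peaks within each library. Width depends on each library's threshold and depth, and read totals are unknown.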
